A study of Mus musculus with 39 samples.

Results

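The antigen presentation genes of the major histocompatibility complex (MHC) class II pathway were followed in brain libraries of mice given saline or an antisense oligonucleotide (ASO), a short synthetic strand that binds a chosen transcript. The genes were 7 of the 52636 listed in each library, and were taken by symbol, without a threshold on their values. They are Cd74, H2-Aa, H2-Ab1, H2-Eb1, H2-DMa, H2-DMb1 and Ciita, and all 7 had counts in every library and passed the expression filter. The labels gave 5 libraries of saline, 3 of ASO 1 (RTR114030), 5 of ASO 2 (RTR113622), 4 of ASO 3 (RTR113656) and 5 of ASO 4 (RTR113792). The other 4 treatments are known by code alone, RTR113609 with 4 libraries, RTR113643 with 5, RTR113841 with 3 and RTR59155 with 5. The design text names Tmem106b, a lysosomal membrane protein gene, as the target of the ASOs. The labels used here give no genotype, strain, sex, age, dose or time. They name brain as the tissue, although the extraction protocol starts from pelleted cells.

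MHC class II molecules are pairs of an alpha and a beta chain that display peptides from endosomes and lysosomes to CD4+ T cells. The invariant chain, encoded by Cd74, blocks the groove of the new pair and guides it to the endosome, and the DM molecule then helps to exchange the remaining invariant chain fragment for a peptide. Ciita encodes the coactivator that drives transcription of these genes, and interferon gamma is its best known inducer. In the brain the pathway is known from border macrophages, dendritic cells and activated microglia, while resting microglia carry little of it.

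By GENCODE M21 on GRCm38, H2-Ab1 lies at chr17:34257689-34269419 (plus strand), H2-Aa at chr17:34282744-34287823 (minus strand) and H2-Eb1 at chr17:34305867-34316674 (plus strand). H2-DMa lies at chr17:34119541-34139101 and H2-DMb1 at chr17:34153072-34160230, both on the plus strand, and Ciita at chr16:10480059-10528418 (plus strand). Each value below is the count of a whole gene, over all its exons.

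The promoters of an alpha and a beta chain gene are shown because levels of these genes varied together across libraries, as described below. The search covered H2-Aa, H2-Eb1, H2-DMa and H2-DMb1, and not Cd74, H2-Ab1 or Ciita. Class II promoters are known to share X and Y boxes next to each other, the Y box holding a reversed CCAAT. The 130 bases before the RefSeq start on GRCm38.p6, 5′ to 3′ on the gene's strand, are chr17:34287824-34287953 (minus strand) for H2-Aa and chr17:34305737-34305866 (plus strand) for H2-Eb1. Capitals mark CCAAT, searched on both strands (ATTGG when reversed), TGACGTCA, and a run of 13 bases shared by H2-Eb1 and H2-DMb1.
H2-Aa: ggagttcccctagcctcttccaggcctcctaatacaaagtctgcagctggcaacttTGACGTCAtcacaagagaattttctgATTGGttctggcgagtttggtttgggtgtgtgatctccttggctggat
H2-Eb1: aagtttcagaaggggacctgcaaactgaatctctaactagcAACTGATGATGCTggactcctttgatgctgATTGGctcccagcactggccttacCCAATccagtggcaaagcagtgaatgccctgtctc
A reversed CCAAT began 48 bases before the start of H2-Aa, 59 before that of H2-Eb1 and 61 before that of H2-DMb1, and H2-Eb1 also held a forward copy. For H2-DMa, 1 window held no CCAAT and another held a reversed copy 198 bases before its start. On either strand CCAAT was present in 37.4% of 32851 RefSeq promoters of 300 bases. The run AACTGATGATGCT began 89 bases before the start of H2-Eb1 and 92 before that of H2-DMb1, and 3 of the 32851 promoters held it. The longest run shared by H2-Aa and H2-Eb1 had 8 bases, and 1346 promoters held it. TGACGTCA, in H2-Aa 74 bases before the start, was present in 1.79% of promoters. These letters were chosen after the sequences had been viewed. A pattern tried before them, CCNAGNNAC, matched in 17.3% of promoters, in those of H2-Aa and H2-DMb1, and not in those of H2-Eb1 and H2-DMa. The RefSeq start of H2-DMb1 lies inside the gene as GENCODE annotates it, so its CCAAT and shared run stand within the annotated gene and may be transcribed. Both windows of H2-DMa, chr17:34122582-34122881 and chr17:34125268-34125567, also lie wholly inside its annotated gene and may be transcribed. A match is a description of letters, and no factor's binding was measured.

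All 8 treatments left less Tmem106b than saline. Tmem106b stood at 171.2 to 214.5 CPM (counts scaled to a common library size, TMM-scaled) in the 5 saline libraries and at 43.9 to 120 CPM in the 34 treated ones, with no overlap. Library totals ran from 19.7 M to 44.2 M counts (mean 34.0 ± 3.90 M, SD, n = 39). Transcripts of the hypothalamus, led by Pmch, differed between libraries, and 11 of 39 had Pmch above 5 CPM. They included 2 of 3 in ASO 1, 3 of 4 in ASO 3 and none in saline, RTR113609 or RTR113841. Cd74 had a median of 16.5 CPM in those 11 libraries and 16.2 CPM in the others. The medians were 5.76 against 4.96 CPM for H2-Aa, 5.13 against 4.18 for H2-Ab1, 4.73 against 4.30 for H2-Eb1 and 2.52 against 2.20 for H2-DMb1. H2-DMa had 15.2 against 15.7 CPM and Ciita 0.229 against 0.201, and the ranges overlapped for all 7 genes. This tissue difference was followed only in fits without these libraries, fits with tissue covariates, and correlations of Cd74 with the hypothalamus and striatum lists. Its part in the class II levels was not tested otherwise. Fits without these libraries leave a single library in ASO 1 and in ASO 3. Nothing in the labels ties libraries to different animals, and the p-values below therefore rest on a spread between libraries that may be technical. In whole tissue, fewer cells of a type and less RNA per cell cannot be told apart.

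Levels differed widely between the 7 genes. On the deposited RPKM scale, which divides by gene width and so allows levels of different genes to be compared, Cd74 was highest at 10.3 ± 2.37 RPKM (SD, n = 39), followed by H2-DMa at 8.73 ± 0.739. Next were H2-Aa at 4.32 ± 1.06, H2-Eb1 at 3.38 ± 0.865, H2-Ab1 at 3.23 ± 0.905 and H2-DMb1 at 1.48 ± 0.281 RPKM. Ciita was lowest at 0.0362 ± 0.0191 RPKM, with 2 to 18 counts per library. The order Cd74 over H2-DMa held in 31 of 39 libraries, and that of H2-Eb1 over H2-Ab1 in 25 of 39, so these neighbours were not cleanly ordered. H2-DMa over H2-Aa, H2-Ab1 over H2-DMb1 and H2-DMb1 over Ciita held in all 39, and H2-Aa over H2-Eb1 in 38.

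No class II gene passed the test against saline under any of the 8 treatments. Of the 56 tests of a gene in a treatment, 0 passed at an adjusted p of 0.05 in edgeR's quasi-likelihood test, and 7 (12.5%) had an unadjusted p under 0.05, beside 12.2% of all gene tests over the same comparisons. DESeq2 called 0 of the 44 tests for which it gave an adjusted p (6 of 56 with unadjusted p under 0.05), and limma voom called 0 of 56 (8 with unadjusted p under 0.05). Of all genes, DESeq2 called from 8 in ASO 4 to 1441 in RTR113609, and limma voom from 4 to 1748 in the same treatments. Over all 19246 genes tested, the share called by edgeR was 0.229% for ASO 1, 0.0727% for ASO 2, 1.91% for ASO 3 and 0.0156% for ASO 4. RTR113609 had the highest share, 6.72%, while RTR59155 had 0.608%, RTR113643 0.483% and RTR113841 0.0935%. The mean of the 8 treatments against saline also called none of the 7 genes, beside 0.4% of all genes, and none of the 7 had an unadjusted p under 0.05. For the 5 genes from Cd74 to H2-DMa, the 95% intervals of all 8 folds lay between 0.597 and 1.96 times saline, both limits being those of single treatments. The interval for H2-DMa was the narrowest, from 0.861 to 1.22 times saline over the 8 treatments.

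**Figure D1:**
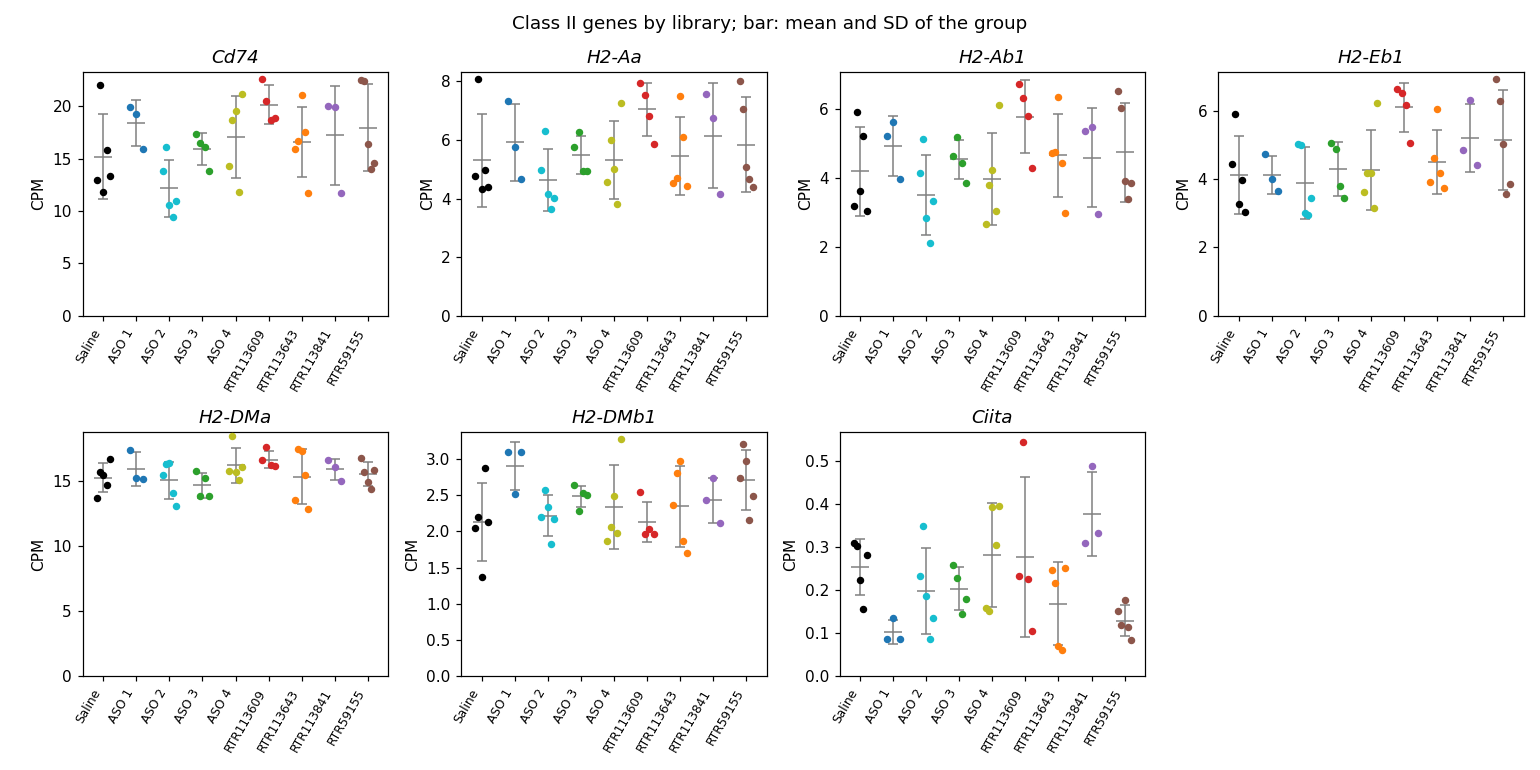
Level of each class II gene in CPM (TMM-scaled) in all 39 libraries by group, on axes starting at 0; points are libraries, and grey bars give the mean and SD of the group. RTR113609 sits high for Cd74 (18.7 to 22.6 CPM) and ASO 2 low (9.48 to 16.1 CPM), while 1 saline library stands at 22.0 CPM.

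Cd74, the invariant chain gene, was measured in saline at 12.97, 22.0, 11.8, 15.9 and 13.4 CPM (replicates 1 to 5; mean 15.2 ± 4.10, SD, n = 5). It was at 22.6, 20.5, 18.7 and 18.9 CPM in RTR113609 (20.2 ± 1.83, SD, n = 4) and at 13.8, 16.1, 10.6, 9.48 and 11.0 CPM in ASO 2 (12.2 ± 2.72, SD, n = 5). Every RTR113609 library was above every ASO 2 library, while both groups overlapped saline. In saline, replicate 2 was at 22.0 CPM and the other 4 at no more than 15.9 CPM. Of 36 pairs of groups Cd74 did not overlap in 2, the other being ASO 3 and RTR113609. The share of all genes without overlap in a pair was not counted. ASO 1 gave 20.0, 19.3 and 15.9 CPM, and ASO 3 gave 17.3, 16.5, 16.1 and 13.8 CPM. ASO 4 gave 14.3, 18.7, 19.6, 11.8 and 21.2 CPM. All 3 groups overlapped saline. RTR113643 gave 16.0, 16.7, 21.1, 17.5 and 11.7 CPM, RTR113841 gave 20.0, 20.0 and 11.8 CPM, and RTR59155 gave 22.5, 22.4, 16.4, 14.0 and 14.6 CPM. These 3 groups also overlapped saline, each with a spread of at least 3.36 CPM (SD) between its libraries.

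H2-Eb1, which encodes a class II beta chain, was at 4.44, 5.92, 3.28, 3.97 and 3.04 CPM in saline (4.13 ± 1.14, SD, n = 5). It was at 6.63, 6.53, 6.18 and 5.07 CPM in RTR113609 (6.10 ± 0.716, SD, n = 4) and at 5.03, 4.99, 3.00, 2.96 and 3.46 CPM in ASO 2 (3.89 ± 1.04, SD, n = 5). RTR113609 and ASO 2 did not overlap, by a margin of 5.07 over 5.03 CPM, and RTR113609 overlapped saline through saline replicate 2. RTR113609 also stood above ASO 1 and ASO 3, so 3 of 36 pairs did not overlap for H2-Eb1, again without a count over all genes. Group means elsewhere ran from 4.12 ± 0.555 CPM (SD, n = 3) in ASO 1 to 5.20 ± 0.985 (SD, n = 3) in RTR113841.

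H2-Aa and H2-Ab1 encode the alpha and beta chains of another class II molecule, I-A. H2-Aa was at 4.75, 8.09, 4.33, 4.96 and 4.38 CPM in saline, at 7.95, 7.52, 6.83 and 5.88 CPM in RTR113609 and at 4.96, 6.31, 4.15, 3.64 and 4.03 CPM in ASO 2. H2-Ab1 was at 3.18, 5.92, 3.63, 5.21 and 3.04 CPM in saline, at 6.72, 6.31, 5.78 and 4.29 CPM in RTR113609 and at 4.13, 5.13, 2.84, 2.11 and 3.32 CPM in ASO 2. Group means over the 9 groups ran from 4.62 ± 1.06 CPM (SD, n = 5) in ASO 2 to 7.04 ± 0.905 (SD, n = 4) in RTR113609 for H2-Aa, and from 3.51 ± 1.17 to 5.78 ± 1.06 in the same 2 groups for H2-Ab1. For both genes RTR113609 overlapped saline and ASO 2, and saline replicate 2 was the highest saline library, as it was for Cd74 and H2-Eb1.

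RTR113609 against saline gave log2 fold changes of 0.41 to 0.56 for the invariant, alpha and beta chain genes, none of which passed. The log2 fold change was 0.56 for H2-Eb1 (SE 0.20, adjusted p = 0.0876), 0.47 for H2-Ab1 (SE 0.24, adjusted p = 0.287), 0.41 for H2-Aa (SE 0.20, adjusted p = 0.266) and 0.41 for Cd74 (SE 0.18, adjusted p = 0.203). H2-DMa, whose product with that of H2-DMb1 forms DM, was at 0.13 (SE 0.08, adjusted p = 0.410), H2-DMb1 at 0.0007 (SE 0.17, adjusted p = 0.999) and Ciita at 0.14 (SE 0.38, adjusted p = 0.900). Without saline replicate 2, Cd74 (0.59, adjusted p = 0.0435) and H2-Eb1 (0.74, adjusted p = 0.0230) passed. Over the other settings and leave-outs the adjusted p ranged from 0.0479 to 0.374 for Cd74 and from 0.0147 to 0.219 for H2-Eb1.

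**Figure D2:**
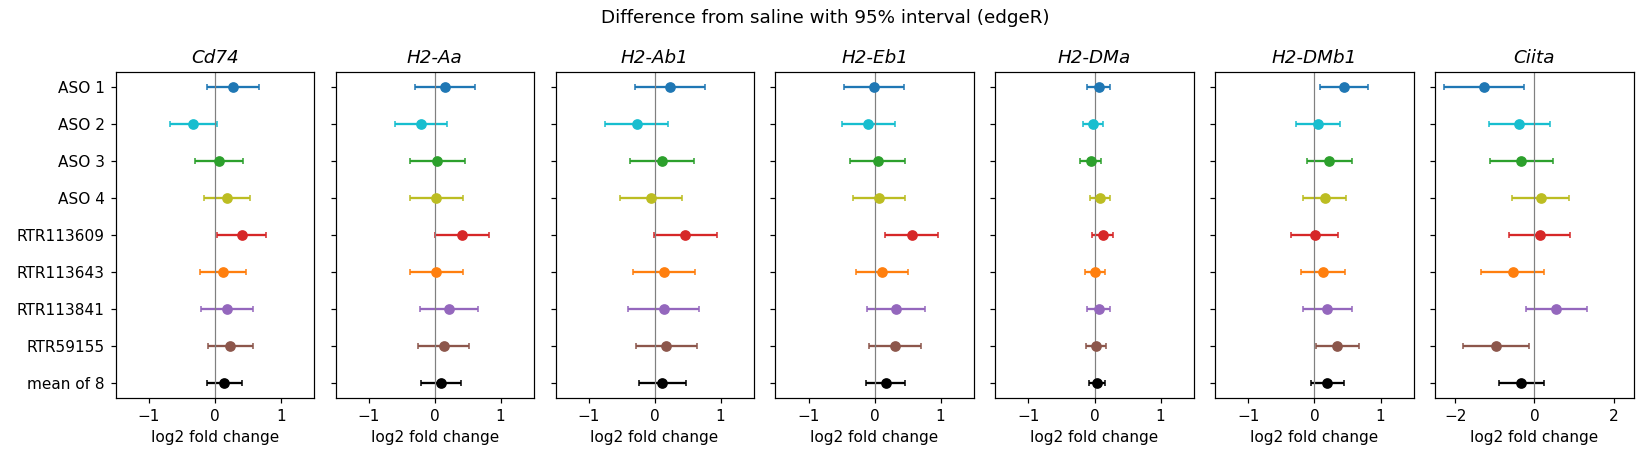
Log2 fold change against saline for each gene (panels) and treatment (rows), with 95% intervals from edgeR; the last row is the mean of the 8 treatments, and the axis of Ciita is wider. RTR113609 gives the highest value for Cd74 (0.41), H2-Aa (0.41), H2-Ab1 (0.47) and H2-Eb1 (0.56), and no adjusted p is below 0.0876.

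Treatments were then set against each other in all 28 pairs, which gave 196 tests of a class II gene. Of the 196, 3 passed (1.53%), against 3.46% of all gene-by-pair tests, so the share for class II genes was below the background. Unadjusted p was under 0.05 in 29 (14.8%), beside 15.8% of all gene-by-pair tests. Between pairs the share of all genes called ran from 0.0052% to 11.8%, and pairs with a group in common share its libraries. Cd74 was lower in ASO 2 than in RTR113609 (log2 fold change -0.73, SE 0.18, 95% interval -1.10 to -0.36, adjusted p = 0.00909), a pair in which 5.98% of all genes were called. The call held in all 8 other settings and all 14 fits that left out a library of ASO 2, RTR113609 or saline, with a highest adjusted p of 0.0498. H2-Eb1 was lower in ASO 2 too (-0.66, SE 0.20, 95% interval -1.06 to -0.25, adjusted p = 0.0419). It passed in all 8 other settings and in 8 of 14 leave-outs, and no longer passed without any 1 of ASO 2 replicates 3, 4 and 5 or RTR113609 replicates 1, 2 and 3 (adjusted p from 0.0727 to 0.136). H2-Aa (-0.62, SE 0.20, adjusted p = 0.0661) and H2-Ab1 (-0.73, SE 0.24, adjusted p = 0.0636) missed the threshold and passed in 6 of 8 other settings each.

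The third call was Cd74 in ASO 1 against ASO 2 (log2 fold change 0.60, SE 0.20, 95% interval 0.20 to 0.99, adjusted p = 0.0453), where 10.8% of all genes were called and 1 of 7 class II genes was. It was lost with limma voom (adjusted p = 0.0532), striatum and hypothalamus covariates (adjusted p = 0.613) and choroid plexus and meningeal covariates (adjusted p = 0.160). It was also lost in 6 of 13 leave-outs, where the adjusted p reached 0.179. The fit without libraries with Pmch above 5 CPM leaves out 2 of 3 ASO 1 libraries and gave a log2 fold change of 0.50. With so few left, that fit cannot decide whether the call holds. The leave-outs that lost it were ASO 1 replicates 1 and 2, ASO 2 replicates 3, 4 and 5, and saline replicate 1. In this pair H2-Ab1 was at 0.50 (SE 0.26, adjusted p = 0.220) and H2-Eb1 at 0.09 (SE 0.22, adjusted p = 0.850).

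Of the DM genes, H2-DMa ranged from 12.8 to 18.5 CPM over the 39 libraries, with group means from 14.7 ± 0.966 (SD, n = 4) in ASO 3 to 16.7 ± 0.669 (SD, n = 4) in RTR113609. H2-DMb1 ranged from 1.37 to 3.28 CPM, with means of 2.13 ± 0.279 in RTR113609 (SD, n = 4) and 2.13 ± 0.539 in saline (SD, n = 5) at the low end, and 2.91 ± 0.332 in ASO 1 (SD, n = 3) at the high end. Neither passed in any comparison with saline. H2-DMb1 had its largest log2 fold change in ASO 1 (0.45, SE 0.18, adjusted p = 0.269) and the next in RTR59155 (0.35, SE 0.16, adjusted p = 0.518). H2-DMb1 has a close copy, H2-DMb2, at 0.460 ± 0.159 CPM in saline (SD, n = 5), with which it could exchange reads. H2-DMa shares 360 of its 3448 annotated exonic bases with other genes. Brd2, at 222.9 CPM, overlaps it on the opposite strand. No label gives the strand setting of the counting, and the 2 genes varied together over libraries (Pearson r = 0.59, permutation p = 9e-05, adjusted 0.00018; Spearman rho = 0.60, permutation p = 7e-05). With group means removed r was 0.65, and it was 0.56 without the 2 libraries farthest from the median of H2-DMa. Whether Brd2 reads are part of the H2-DMa count was not tested.

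Ciita was the only class II gene that passed the test of any difference among the 9 groups (adjusted p = 0.0428), a test that called 19% of all genes. Its counts were 11, 10, 7, 5 and 9 in saline, 3, 5 and 3 in ASO 1, 12, 17 and 11 in RTR113841, and 5, 4, 6, 4 and 3 in RTR59155. On the CPM scale ASO 1 lay below saline without overlap (at most 0.136 against at least 0.155). RTR113841 lay above saline by less than 1 read is worth (at least 0.3103 against at most 0.3094). Of 36 pairs of groups Ciita did not overlap in 8, and the share of all genes without overlap was not counted. Means were 0.254 ± 0.0650 CPM in saline (SD, n = 5), 0.103 ± 0.0286 in ASO 1 (SD, n = 3), 0.378 ± 0.0975 in RTR113841 (SD, n = 3) and 0.129 ± 0.0354 in RTR59155 (SD, n = 5). Against saline the log2 fold change was -1.28 in ASO 1 (SE 0.50, adjusted p = 0.253), -0.97 in RTR59155 (SE 0.41, adjusted p = 0.466) and 0.55 in RTR113841 (SE 0.38, adjusted p = 0.790). No pair of treatments passed for Ciita. The test of any difference was lost in 20 of 39 leave-outs (highest adjusted p 0.0987), and at a mean of 7.44 counts per library counting error alone gives a coefficient of variation of 36.7%. Ciita also shares 329 of 9535 exonic bases with Dexi on the opposite strand, with which it had r = -0.13 (permutation p = 0.422, adjusted 0.422; Spearman rho = -0.18, permutation p = 0.257). Cd74 had an adjusted p of 0.0975 in the same test.

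Across libraries Cd74, H2-Aa, H2-Ab1 and H2-Eb1 varied together. Within groups, the SD of log2 CPM (prior count 2) was 0.303 for Cd74, 0.329 for H2-Aa, 0.398 for H2-Ab1 and 0.324 for H2-Eb1. Genes within 2-fold of the mean CPM of each had a median SD of 0.102, 0.159, 0.173 and 0.171. H2-DMa, at 0.121 against 0.104, and H2-DMb1, at 0.258 against 0.222, were close to such genes. Group membership took 36.7% of the variance of Cd74, 23.7% of that of H2-Aa, 25.7% of that of H2-Ab1 and 32.4% of that of H2-Eb1. The median share for genes of like level was 32.8%, 30.8%, 29.7% and 29.8%, so these shares were near those of other genes.

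Cd74 correlated with H2-Aa at r = 0.91 (Spearman rho = 0.93), with H2-Ab1 at r = 0.90 (rho = 0.90) and with H2-Eb1 at r = 0.82 (rho = 0.83) over 39 libraries. For each of these the permutation p was 1e-05, the smallest that 100000 permutations can give, and 2e-05 after adjustment over 6 relations. With group means removed r was 0.92, 0.91 and 0.85, so the relation held within groups. The r values were 0.90, 0.87 and 0.78 without the 2 libraries farthest from the median of Cd74. With H2-DMa r was 0.57 (rho = 0.59, permutation p = 9e-05, adjusted 0.000135) and with H2-DMb1 0.54 (rho = 0.50, permutation p = 0.00034, adjusted 0.000408). Their values within groups were 0.54 and 0.64, and without the 2 farthest libraries 0.62 and 0.53. With Ciita it was 0.08 (rho = 0.07, permutation p = 0.634, adjusted 0.634). Among all tested genes ordered by r with Cd74, H2-Aa was at rank 1, H2-Ab1 at 2 and H2-Eb1 at 5, while H2-DMa was at 272, H2-DMb1 at 359 and Ciita at 7218.

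**Figure D3:**
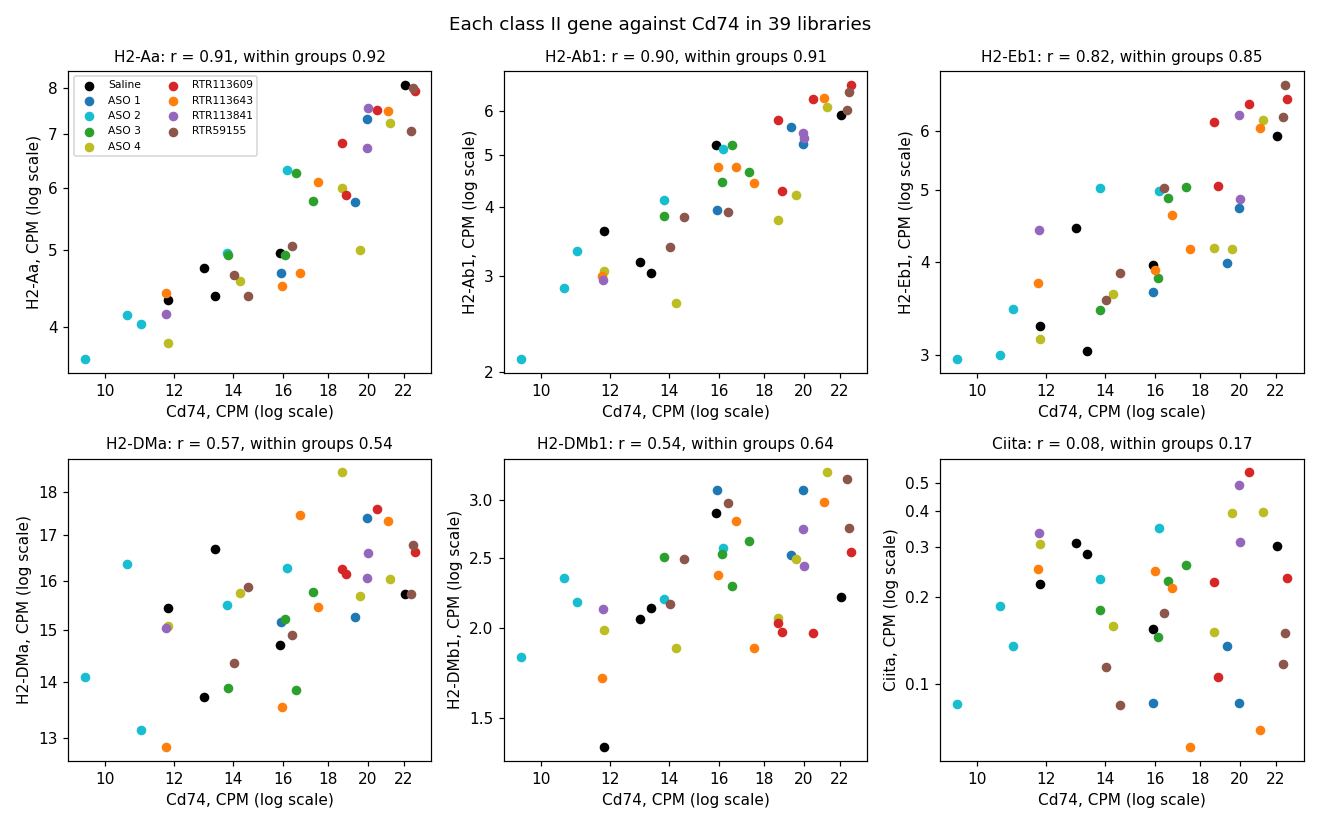
Each class II gene against Cd74 in 39 libraries, in CPM on log axes, coloured by group; titles give Pearson r over all libraries and with group means removed. H2-Aa, H2-Ab1 and H2-Eb1 follow Cd74 closely (r = 0.91, 0.90 and 0.82), H2-DMa and H2-DMb1 loosely (0.57 and 0.54), and Ciita scatters widely (0.08).

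The ratio between 2 chain genes in a library was steadier than either level. The log2 ratio of H2-Aa to Cd74 had an SD of 0.147 over the 39 libraries, where counting error alone gives 0.125 and the log2 level of H2-Aa had an SD of 0.338. The ratio of H2-Ab1 to Cd74 had an SD of 0.186 (counting error 0.138, level 0.416) and that of H2-Eb1 to Cd74 0.210 (counting error 0.136, level 0.355). For H2-DMa the ratio had an SD of 0.288, larger than the 0.121 of its own level.

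The genes outside the 7 whose log2 CPM was most like that of Cd74 over 39 libraries were Fcer1g (r = 0.84), which encodes the common gamma chain of Fc receptors, Ifi30 (0.82), a lysosomal thiol reductase of antigen processing, and Pik3ap1 (0.81). They were followed by Cybb (0.80), the catalytic subunit of the phagocyte oxidase, Ctsc (0.80), a lysosomal protease, and Gpr65 (0.80), a proton-sensing receptor. For H2-Aa they were Ifi30 and Cybb (both 0.78), Ctsc and the class I gene H2-K1 (both 0.77), Pik3ap1 (0.76) and Fcer1g (0.74). Within groups, these r values ran from 0.73 for H2-Aa with Fcer1g to 0.83 for Cd74 with Fcer1g.

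Marker lists of cell types and brain regions, and the interferon gamma pathway list, were summed in CPM and compared with Cd74. With group means removed, r was 0.73 for the dendritic cell list (Spearman rho = 0.75, permutation p = 1e-05, adjusted 0.00012) and 0.69 for microglia (rho = 0.70, permutation p = 3e-05, adjusted 0.00018). It was 0.64 for B cells (rho = 0.59, permutation p = 0.00047, adjusted 0.00188) and 0.51 for border macrophages (rho = 0.49, permutation p = 0.00456, adjusted 0.0137). Over all libraries pooled, r was 0.38, 0.69, 0.63 and 0.42 for these 4 lists. Without the 2 libraries farthest from the median of Cd74 the values within groups were 0.72, 0.65, 0.54 and 0.43. Monocytes (0.38, adjusted permutation p = 0.079), the interferon gamma pathway (0.37, adjusted permutation p = 0.079) and meningeal fibroblasts (0.33, adjusted permutation p = 0.125) did not pass within groups, although monocytes (r = 0.48, adjusted permutation p = 0.00732) and the interferon gamma pathway (r = 0.43, adjusted permutation p = 0.0183) did when pooled. T cells (-0.07), choroid plexus (0.01), red blood cells (0.005), hypothalamus (-0.05) and striatum (-0.25) did not pass either way. The microglia sum correlated within groups with H2-Aa at r = 0.63, H2-Ab1 at 0.68, H2-Eb1 at 0.65, H2-DMb1 at 0.61, Ciita at 0.45 and H2-DMa at 0.39. For the dendritic cell sum the values were 0.70, 0.71, 0.69, 0.61, 0.26 and 0.38 in the same order. Of these 12 relations only that of Ciita with dendritic cells missed the threshold (adjusted permutation p = 0.143, over 21 relations). With the border macrophage sum, H2-Aa (0.54), H2-Ab1 (0.46) and H2-Eb1 (0.47) passed within groups, and H2-DMa (0.22, adjusted permutation p = 0.165), H2-DMb1 (0.25, adjusted permutation p = 0.134) and Ciita (0.17, adjusted permutation p = 0.234) did not. Pooled over all libraries, r with the dendritic cell sum did not pass for H2-Aa (0.28, adjusted permutation p = 0.120), H2-Ab1 (0.32, adjusted permutation p = 0.085), H2-Eb1 (0.20, adjusted permutation p = 0.258), H2-DMa (0.10, adjusted permutation p = 0.586) or Ciita (-0.12, adjusted permutation p = 0.528). Pooled values also missed the threshold for Ciita with microglia (0.20, adjusted permutation p = 0.258) and for all 6 of these genes with border macrophages (r from 0.05 to 0.36).

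These list sums are carried by few genes. Of the dendritic cell list, Zbtb46 (11.4 CPM on average), Flt3 (7.46) and Itgax (7.35) made up most of 28.2 CPM, while Xcr1, Clec9a and Klrd1 were at 0 counts in 10, 10 and 9 of 39 libraries. Of the B cell list, Cd22, which microglia can also express, gave 2.15 of 2.81 CPM, and Ms4a1, Fcrla and Blk were at 0 in 24, 23 and 26 libraries. Of the T cell list, Cd4 gave 34.4 of 37.0 CPM, and Cd3d, Cd3e and Cd3g were at 0 in 15, 5 and 8 libraries. The monocyte list rested on Fn1 (55.1 CPM) and Vcan (17.7 CPM), with Chil3 and Ms4a8a at 0 in 26 and 24. All 10 border macrophage markers had counts in every library, led by Stab1 at 21.8 of 35.3 CPM.

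**Figure D4:**
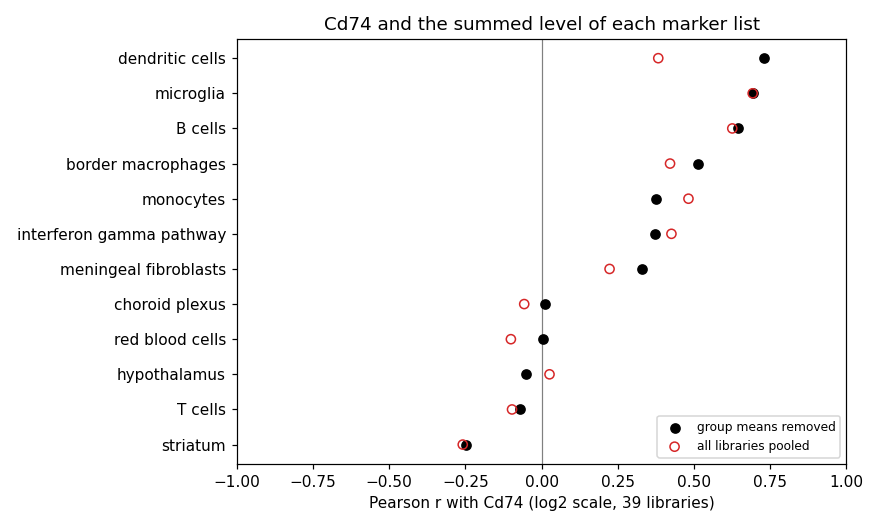
Pearson r between Cd74 and the summed CPM of each marker list on the log2 scale over 39 libraries; filled points have group means removed and open points pool all libraries. Dendritic cell, microglia and B cell lists stand highest within groups (0.73, 0.69 and 0.64), and striatum lowest (-0.25).

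Beside the class II levels of RTR113609, the microglia sum was 594 to 632 CPM there, 515 to 621 in saline and 524 to 664 in ASO 2. The dendritic cell sum was lower, at 18.9 to 22.6 CPM in RTR113609 against 23.4 to 26.8 in saline and 24.1 to 30.5 in ASO 2, with no overlap between RTR113609 and the others. The border macrophage sum was 29.9 to 34.1 CPM in RTR113609, 32.2 to 39.7 in saline and 30.8 to 34.5 in ASO 2. Saline replicate 2, the library high in class II, was the highest saline library for microglia (621 against 515 to 589 CPM in the others), border macrophages (39.7 against 32.2 to 34.7) and dendritic cells (26.8 against 23.4 to 25.0). ASO 2 replicate 2 was likewise the highest of its group for Cd74 (16.1 CPM), microglia (664 CPM) and dendritic cells (30.5 CPM). For border macrophages it stood at 34.3 CPM, below ASO 2 replicate 1 at 34.5 CPM. RTR113609 replicate 1, the highest of its group for Cd74 (22.6 CPM), was the lowest for microglia (594 CPM) and border macrophages (29.9 CPM). It was the highest of that group for dendritic cells (22.6 CPM). The part of these cells in the class II levels was not tested.

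Other genes of the pathway passed in RTR113609, where 6.72% of all genes were called and none of the 7. Of 10 tested genes of class II processing and chaperoning, 2 rose and 1 fell, with a list median log2 fold change of 0.17 beside 0.003 over all genes. Ctss, the protease that trims the invariant chain, rose from 137 ± 22.4 CPM (SD, n = 5) in saline to 224 ± 11.3 (SD, n = 4), a log2 fold change of 0.71 (adjusted p = 0.000554). Ifi30 rose by 0.69 (adjusted p = 0.00254), and Marchf1, a ubiquitin ligase that removes class II from the cell surface, fell by 0.42 (adjusted p = 0.000586). H2-Oa and H2-Ob, which form the DM inhibitor DO, were at 1.08 ± 0.129 and 1.15 ± 0.212 CPM (SD, n = 4), against 0.867 ± 0.230 and 0.843 ± 0.134 in saline (SD, n = 5), and did not pass.

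Of 5 tested co-stimulation genes 1 rose in RTR113609, Cd274, which encodes the inhibitory ligand PD-L1 (0.99, adjusted p = 2.07e-09). Of 13 tested genes of the interferon gamma pathway 7 rose and 1, Jak1, fell, with a list median of 0.77. Igtp rose by 1.01 (adjusted p = 2.80e-11), Gbp2 by 1.19 (adjusted p = 2.41e-08) and Cxcl10, a chemokine, by 2.28 (adjusted p = 1.31e-06). Nlrc5, the counterpart of Ciita for MHC class I genes, rose by 1.20 (adjusted p = 0.000260), while Ciita had a log2 fold change of 0.14. Ifng itself was at 0 counts in 35 of the 39 libraries, all 5 saline ones among them. None of the 7 tested genes of class II transcription passed in RTR113609 (list median 0.008). The other 7 treatments called none of these 4 lists against saline except Nfyb, a subunit of the CCAAT-binding factor NF-Y, in ASO 2 (0.21, adjusted p = 0.0499).

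In RTR113609, where 6.72% of all genes were called, cell type markers changed in both directions. Of 10 microglia markers 3 rose, Siglech (0.39, adjusted p = 4.11e-06), Tmem119 (0.29, adjusted p = 0.00132) and Aif1 (0.55, adjusted p = 0.00193). Of 10 border macrophage markers Siglec1 and Ms4a7 rose and F13a1 and Mrc1 fell. Cd209a fell among 7 tested dendritic cell markers, and Slc6a13 among 8 meningeal fibroblast markers. Of 4 tested monocyte markers Ms4a4c rose and Vcan fell. No marker of B cells, T cells, choroid plexus, red blood cells, hypothalamus or striatum passed there. The share of all genes called was 1.91% in ASO 3 and 0.608% in RTR59155. In ASO 3 Itgax of the dendritic cell list rose (1.40, adjusted p = 0.0129), and the border macrophage markers Mrc1 (-0.62, adjusted p = 0.0115) and Cd163 (-0.95, adjusted p = 0.0105) fell. In RTR59155 Itgax rose as well (1.41, adjusted p = 0.0131), and F13a1 fell (-0.79, adjusted p = 0.00863). Itgax is 1 of the 3 genes that carry the dendritic cell sum, while Xcr1, Clec9a and Klrd1 of that list were near 0. Whether dendritic cells carried its rise was not tested. In ASO 3, where 5 of 5 tested red blood cell markers and 4 of 9 hypothalamus markers rose, the class II log2 fold changes ran from -0.33 for Ciita to 0.22 for H2-DMb1 and none of the 7 passed.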

How the data were processed

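Polyadenylated RNA was prepared with a TruSeq Stranded mRNA kit, per the labels. Reads were aligned with GSNAP to GRCm38, per the submitters' processing notes; no source used here gives the version, counting tool, annotation release or strand setting. Each deposited file holds, for 52636 Ensembl genes, a whole-number read count, a gene width and RPKM, as the authors made them. Symbols were given for 52403 genes, and all 141 genes of the lists were found; positions came from GENCODE M21.

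The deposited counts were tested with edgeR 4.0.16 (R 4.3.3) in 1 design of 9 groups, after filterByExpr and TMM scaling, with the quasi-likelihood test, two-sided, and Benjamini-Hochberg adjustment over 19246 genes; the threshold was 0.05. Every adjusted p of a group difference is from that test unless another is named. SE is the size of the log2 fold change divided by the square root of F. Levels are CPM on TMM-scaled totals, and RPKM was used to compare genes and in ratios. Correlations used log2 CPM with a prior count of 2 and permutation tests with 100000 resamples, within groups where group means were removed. Alternatives were DESeq2 1.42.0, limma 3.58.1 voom with quality weights, median-of-ratios scaling, no filter, 2 groups only, tissue covariates, leaving out libraries with Pmch above 5 CPM, and leaving out each library. No 2 libraries of a group agreed within sampling noise (chi-square per degree of freedom of at least 3.11).

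The 7 genes and the lists were chosen with earlier results of these data known. Named by rule were the 7 genes, up to 4 genes per list with the smallest adjusted p against saline, and the 6 genes most like Cd74 and H2-Aa, predicted genes and pseudogenes passed over. Results of some genes of the lists are not reported here. DO genes, Ifng, H2-DMb2, Brd2, Dexi, and the marker genes that carry a list's sum or were at 0 were added after their values were seen. So were the correlations with marker lists and neighbours, the spread of genes of like level, and the promoter letters.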

Additional observations from a re-analysis of the deposited data

Results flagged for a closer look

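Each class II gene was examined in the 7 groups of 4 or 5 libraries for a single library far from the others, and 3 of 49 such sets held one, where chance gives about 1 in 20. H2-Aa stood at 8.09 CPM in saline replicate 2 and at 4.33 to 4.96 CPM in the other 4 saline libraries. H2-DMa stood at 18.5 CPM in ASO 4 replicate 2, against 15.1 to 16.1 CPM in the others. H2-DMb1 stood at 2.54 CPM in RTR113609 replicate 1, against 1.96 to 2.03 CPM in the others.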

How the results depend on the processing

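No paired analysis was possible because the labels give no replicate numbers shared between groups. The count of class II genes called against saline was 0 in the settings that gave a value for every treatment but RTR113609, and for the mean of the 8. DESeq2 gave no adjusted p for any of the 7 genes in ASO 2, nor for Ciita in the test of any difference, so those counts have no DESeq2 value. In RTR113609 the count was 1 with striatum and hypothalamus covariates or with 2 groups only (H2-Eb1 in both), and 3 with choroid plexus and meningeal covariates (Cd74, H2-Aa and H2-Eb1). It was 0 to 2 over leave-outs, 2 being reached without saline replicate 2. Over all genes, RTR113609 had 1392, 1148 and 1086 calls in those settings, in the order named. It had 1127 without saline replicate 2 and 1294 in the main fit. In the test of any difference the count fell from 1 to 0 with striatum and hypothalamus covariates and without the 11 libraries with Pmch above 5 CPM. It was 0 to 1 over leave-outs; without the expression filter it was Cd74 and not Ciita that passed. The calls in 28 pairs went from 3 to 5 with limma voom, 6 without the filter, 9 with striatum and hypothalamus covariates and 7 with choroid plexus and meningeal covariates, and from 1 to 7 over leave-outs. The highest of these was without ASO 2 replicate 2, and 1 was reached without ASO 2 replicate 3, 4 or 5 or RTR113609 replicate 1, 2 or 3; without saline replicate 2, ASO 4 replicate 5 or RTR113609 replicate 4 it was 5. Calls over all genes in the pairs were not counted under these settings and leave-outs, so these counts have no background. The cause of the changes was not tested. No difference of a called gene changed direction, and the 6 correlations with Cd74 kept their side of the threshold without the Pmch libraries and with a prior count of 0.5. Depth limits Ciita, at 2 to 18 counts per library.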
